A study of Mus musculus with 12 samples.

Results

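The mitochondrial ribosomal proteins were followed through RNA sequencing of the small intestine of mice with and without necrotizing enterocolitis (NEC), a disease in which the inflamed bowel wall dies. Members were the protein-coding genes whose symbols begin with Mrpl or Mrps followed by a digit, and 78 of the 54532 genes measured met that rule: 49 Mrpl genes and 29 Mrps genes. C57BL/6J mice of 2 genotypes were used. In the CKO groups Piezo1, a mechanically gated channel that admits Ca2+, had been knocked out in intestinal epithelial cells, and the flox groups were floxed controls with Piezo1 intact. Both genotypes were sampled uninjured (control) and with induced NEC, giving flox control, CKO control, flox NEC and CKO NEC with 3 libraries each and 12 in all. The study's title concerns Piezo1, Ca2+ and CaMKII in NEC. The sources used here do not give the promoter that drove the deletion, the age of the mice, the way NEC was induced or whether each library came from its own animal, so p-values measure the spread between these libraries. Whole tissue was sequenced, and a lower level may mean fewer cells of a type or less RNA per cell, which cannot be told apart.

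Mitochondria hold their own genome, and the few proteins it encodes are subunits of the oxidative phosphorylation complexes. They are made on a ribosome inside the organelle whose RNAs come from the mitochondrial genome, while its proteins are all encoded in the nucleus, made in the cytosol and imported. Many of these proteins descend from bacterial ribosomal proteins, and others were added in the mitochondrial lineage. In the intestine, absorptive cells and dividing crypt cells rely on mitochondrial respiration to different degrees. By textbook role, 29 members are large-subunit proteins with a bacterial counterpart, 22 are large-subunit additions, 16 are small-subunit proteins with a bacterial counterpart and 10 are small-subunit additions. Symbols do not always tell the place of a protein: Mrps18a and Mrps30 sit in the large subunit, and Mrps36 is now known as a component of the alpha-ketoglutarate dehydrogenase complex.

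Depth was 13057724 to 16821130 reads per library. Values are FPKM, that is, reads divided by gene length and by library size as the authors scaled them, with a separate table for each condition. The tables were scaled separately, so genotypes are compared within a table on deposited FPKM, while NEC and control are compared on rescaled FPKM, for which the reads recovered from the FPKM were brought to a scale shared by all 12 libraries. NEC and control therefore also differ by table, and condition and table cannot be told apart. Changes are differences of log2(FPKM + 1), which understate the change of genes at low levels. They were tested with limma over every gene that reached an FPKM of 1 in 3 or more of the fitted libraries, and called at a Benjamini-Hochberg adjusted p under 0.05. Piezo1 itself, the check of the genotype, stood in NEC at 5.38, 5.58 and 3.23 deposited FPKM in CKO against 7.38, 7.22 and 6.76 in flox. In control the CKO libraries (1.71, 1.03 and 0.926) overlapped with flox (1.38, 1.44 and 1.09). Of the epithelial markers, 8 of 8 were detected in every group, and no marker of the cell types examined was listed at 0 in all libraries of a group.

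Promoters are shown because nuclear genes of the mitochondrial ribosome are known as targets of nuclear respiratory factor 1 (NRF1) and of the ETS-type GABP complex. Entries of RefSeq's promoter table (GRCm38.p6, 250 bases before to 50 after each start) matched 69 of the 78 members, in 75 windows. Motifs were searched on both strands, and matches of different motifs were allowed to overlap. The core bound by ETS factors such as the GABP proteins (CCGGAAG) was in 34.7% of member windows, against 11.6% of protein-coding windows and 8.86% of all windows. The NRF1 core (CGCATGCG) was in 9.33% against 2.52% and 1.87%. The YY1 core (AAGATGGCG) was in 10.7% against 1.83% and 1.40%. At least 1 of these 3 cores was in 48% of member windows, 15% of protein-coding windows and 11.5% of all windows. The E-box (CACGTG) was in 9.33% of member windows against 7.84% and 7.15%, and the GC box (GGGCGG) was in 52% against 46.2% and 35.7%. The sequences are the 150 bases before the start of 2 members that rose with NEC in flox tissue, Mrpl3 (chr9:105053118-105053267, plus strand) and Mrpl9 (chr3:94443186-94443335, plus strand), and of 2 that fell, Mrps21 (chr3:95871515-95871664, minus strand) and Mrps36 (chr13:100744660-100744809, minus strand), each read 5′ to 3′ with motif matches in capitals.
Mrpl3: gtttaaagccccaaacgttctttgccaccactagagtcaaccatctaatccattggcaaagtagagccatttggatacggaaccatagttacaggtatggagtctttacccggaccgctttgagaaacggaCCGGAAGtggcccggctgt
Mrpl9: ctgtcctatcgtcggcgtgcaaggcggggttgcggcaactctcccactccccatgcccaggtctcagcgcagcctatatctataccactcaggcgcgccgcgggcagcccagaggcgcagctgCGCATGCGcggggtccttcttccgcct
Mrps21: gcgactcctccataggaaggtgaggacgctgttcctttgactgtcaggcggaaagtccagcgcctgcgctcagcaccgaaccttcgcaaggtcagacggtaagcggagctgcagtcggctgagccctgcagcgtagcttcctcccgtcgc
Mrps36: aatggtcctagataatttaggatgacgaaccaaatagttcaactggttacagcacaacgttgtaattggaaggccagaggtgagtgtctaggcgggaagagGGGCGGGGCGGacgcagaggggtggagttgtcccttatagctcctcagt
The capitals in Mrpl3 are an ETS core, those in Mrpl9 an NRF1 core, and those in Mrps36 are 2 GC boxes that share a base. Mrps21 holds none of the searched motifs in these bases, and its ETS core lies after the start. A match describes the letters only.

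The members were expressed at modest and spread levels. Mrpl53 was listed at 0 in all 12 libraries, and 88% of its exon bases are shared with other annotated genes. The other 77 were tested in every comparison, and their mean rescaled FPKM over the 12 libraries ran from 2.46 to 60.4 with a median of 10.9. Mrpl2, the counterpart of bacterial L2 beside the catalytic centre, had the highest level, followed by Mrps21 at 56.1 and Mrpl27 at 48.7. Mrpl47 was lowest, and Mrps25 at 2.52 and Mrps30 at 2.68 came next. A tested member had 70 to 1519 reads in a library. The summed rescaled FPKM of the members was 1418 ± 50.6 in flox control, 1247 ± 105 in CKO control, 916 ± 68.5 in flox NEC and 1042 ± 132 in CKO NEC (SD, n = 3 each). The genes lie on 17 chromosomes, with 11 of them on chromosome 11, and coordinates given here are those of the files, of which 98.3% of genes were identical to GENCODE M21 on GRCm38. For 25 members an opposite-strand protein-coding gene starts within 500 bases. Mrpl36 starts 29 bases from Ndufs6, a complex I subunit, Mrps12 starts 172 bases from Sars2, the mitochondrial seryl-tRNA synthetase, and Mrpl46 and Mrps11 start 412 bases from each other. In 33 members some exon bases are shared with another gene, and in Mrps34 (77.8%) and Mrps25 (69.8%) most are. The library kit does not mark strand, so reads of such overlaps cannot be assigned to either gene.

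**Figure D1:**
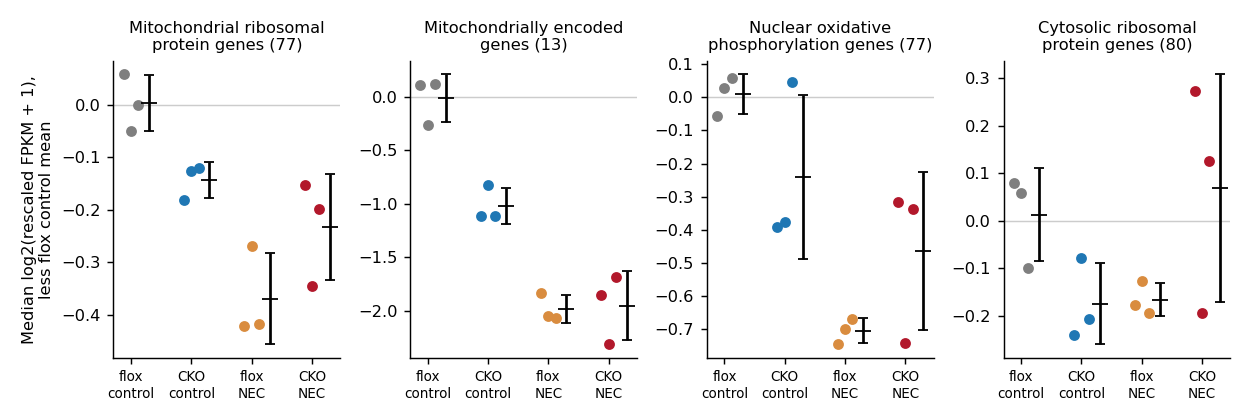
Each point is 1 library: the median over the genes of a list of log2(rescaled FPKM + 1), less each gene's mean in flox control, with group mean and SD (n = 3) beside it. Among the mitochondrial ribosomal protein genes the 3 flox NEC libraries (-0.42 to -0.27) lie below the 3 flox control libraries (-0.05 to 0.06), while the CKO NEC libraries (-0.35 to -0.15) overlap with CKO control (-0.18 to -0.12). The place of NEC against control depends on the scaling. On reads scaled to each library's total the members' median change in CKO is 0.14, and that of all genes is 0.24.

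In flox tissue with NEC, transcripts of mitochondrial ribosomal proteins were mostly lower than in uninjured flox tissue. Of the 77 tested, 40 fell and 4 rose, where 26.4% of all 14688 genes tested fell and 27.1% rose. The median change of the members was -0.38, against 0.0003 over all genes. The fall was counted in 17 of 29 large-subunit proteins with a bacterial counterpart and in 10 of 21 large-subunit additions. It was counted in 8 of 16 small-subunit proteins with a bacterial counterpart and in 4 of 10 small-subunit additions. The medians of these classes were -0.38, -0.44, -0.30 and -0.10 in that order. The small-subunit additions also held 2 members that rose. Their summed rescaled FPKM was 78.5 ± 4.67 in flox control and 76.8 ± 6.20 in flox NEC (SD, n = 3 each). Without Mrps36 the counts were 39 lower and 4 higher of 76. On other scalings the split of higher to lower calls was 7 to 32 on deposited FPKM, 9 to 24 on reads scaled to each library's total and 3 to 42 with upper-quartile scaling, and the members' median stayed below that of all genes by 0.37 to 0.39 on these 3. That gap was 0.41 with quantile normalization and 0.21 after centring within gene length. The median of all genes was 0.13 on deposited FPKM, 0.22 on reads scaled to each library's total and -0.04 with upper-quartile scaling. The shares of all genes called on these other scalings are not given here. The count of members that rose was 2 without flox control 1, without flox NEC 2 or without flox NEC 3.

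Mrps21 (chromosome 3, 95862634 to 95871519), the mitochondrial form of bacterial S21 in the small subunit, had the smallest p of the members that fell. It stood at 100.3, 93.03 and 107.8 rescaled FPKM in flox control and at 23.2, 24.8 and 28.6 in flox NEC, with no overlap between the groups. The change was -1.94 with an SE of 0.16 (limma, adjusted p = 1e-05). Mrpl36, the counterpart of bacterial L36, which joins the large subunit late, stood at 37.3, 31.02 and 34.1 in flox control and 13.8, 15.9 and 11.1 in flox NEC. Its change was -1.27 ± 0.14 (SE, adjusted p = 3.2e-05, limma). Mrps36, the dehydrogenase component, went from 59.4, 51.6 and 57.3 to 16.4, 21.4 and 19.0 rescaled FPKM (change -1.52 ± 0.17 SE, adjusted p = 4.3e-05, limma). Mrpl24, a large-subunit protein of early assembly in bacteria, stood at 39.4, 31.04 and 35.8 in flox control and 13.6, 15.2 and 15.05 in flox NEC, a change of -1.21 ± 0.15 (SE). Mrps33, a small-subunit addition, stood at 15.3, 14.97 and 16.2 against 6.31, 8.35 and 6.03, a change of -1.08 ± 0.14 (SE). In each of these 5 genes every NEC library lay below every control library, which was part of the rule by which they were named. Groups lay apart in this direction in 48 of the 77 members and in 4530 of all 14688 genes tested. All 5 named genes kept the call in each of the 22 alternatives run.

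Other members that fell in flox tissue had larger p and changes of both larger and smaller size, the largest among them being that of Mrpl14 at -1.33. Mrpl27, the counterpart of bacterial L27 near the catalytic centre, fell from 72.4 ± 6.69 to 30.3 ± 4.57 rescaled FPKM (SD, n = 3 each), and Mrpl34 fell from 52.8 ± 3.62 to 27.7 ± 3.72. Mrpl54 fell from 58.5 ± 1.45 to 28.08 ± 5.84 and Mrpl2 from 76.9 ± 4.27 to 44.9 ± 8.26. Mrpl58, a peptide release factor built into the large subunit, fell from 10.8 ± 0.41 to 5.89 ± 0.30, and Mrpl45, which lies at the tunnel exit facing the membrane, fell from 18.7 ± 0.38 to 11.3 ± 1.702. Mrps15 fell from 22.2 ± 2.58 to 10.97 ± 0.51, Mrps11 from 8.10 ± 1.31 to 4.87 ± 0.38 and Mrps25 from 3.54 ± 0.47 to 1.67 ± 0.12. Mrpl14 fell from 41.7 ± 5.45 to 16.2 ± 3.49 and Mrpl51 from 21.5 ± 2.55 to 8.75 ± 0.44. The changes of the 40 members that fell ran from -1.94 in Mrps21 to -0.32 in Mrpl22. Not all of the 40 were followed gene by gene through the alternatives. Among those followed, Mrpl41 (change -0.56), Mrps26 (-0.33) and Mrpl47 (-0.34) lost their calls in 2, 4 and 6 alternatives. Of all 40, 24 kept the call on reads scaled to each library's total. After centring within gene length 30 kept it, and on deposited FPKM 32 did. Mrpl12, a stalk protein that also binds the mitochondrial RNA polymerase, did not pass in flox (18.2 ± 1.95 in control, 23.3 ± 3.58 in NEC, adjusted p = 0.105, limma). Mrpl44, Mrps12, Mrps18a and Mrps18c did not pass either, with changes of 0.15, -0.13, 0.15 and -0.14.

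The members that rose in flox tissue were Mrpl3, Mrps18b, Mrpl9 and Mrps23. Mrpl3 (chromosome 9, 105053239 to 105079888), a large-subunit core protein, stood at 2.83, 3.03 and 2.31 rescaled FPKM in flox control and at 7.09, 6.93 and 5.99 in flox NEC. The change was 1.04 ± 0.13 (SE, adjusted p = 5.9e-05, limma), with no overlap. Mrps18b, a small-subunit addition and one of 3 genes related to bacterial S18, stood at 3.73, 3.03 and 3.88 in flox control and 9.36, 7.42 and 7.41 in flox NEC, a change of 0.99 ± 0.17 (SE). Its relatives did not pass: Mrps18c, which holds the bacterial S18 place, had 14.2 ± 4.35 in flox control and 12.4 ± 0.69 in flox NEC, and Mrps18a had 5.59 ± 0.82 and 6.30 ± 0.29 (SD, n = 3 each). In Mrps18b 30.5% of exon bases are shared with an antisense gene. Mrpl9 stood at 12.4, 16.6 and 13.1 against 17.2, 21.01 and 20.6, a change of 0.46 ± 0.14 (SE) whose adjusted p ran up to 0.0698 when 1 of 4 flox libraries was left out. Mrps23 rose by 0.48 ± 0.18 (SE, adjusted p = 0.0412, limma).

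**Figure D2:**
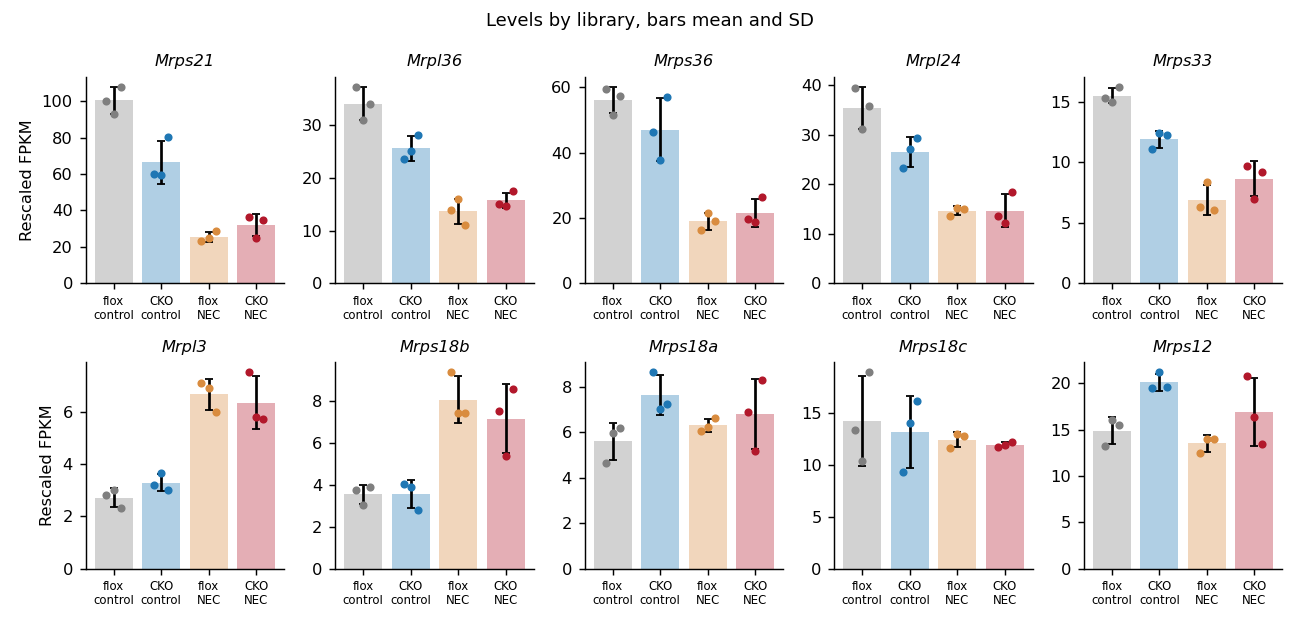
Rescaled FPKM in each library (points) with group means (bars from 0) and SD (n = 3) for 10 members. Mrps21, Mrpl36, Mrps36, Mrpl24 and Mrps33 are lower in NEC in both genotypes, Mrpl3 and Mrps18b are higher in NEC in both, and the Mrps18a, Mrps18c and Mrps12 groups overlap between NEC and control in each genotype.

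In CKO tissue the same comparison gave fewer calls. Of the 77 members, 17 fell and 6 rose with NEC, where 22.9% of all genes fell and 20.1% rose, so the share that fell was close to the background. The members' median change was -0.15 against -0.01 over all genes, and it was 0.14 on reads scaled to each library's total, 0.006 after centring within gene length and -0.01 on deposited FPKM. The split of higher to lower calls was 20 to 5 on reads scaled to each library's total, 9 to 10 on deposited FPKM, 9 to 12 after centring within gene length, 7 to 11 with quantile normalization and 5 to 25 with upper-quartile scaling. On reads scaled to each library's total the median of all genes moved up as well, by 0.24 in CKO and 0.22 in flox, and on deposited FPKM by 0.10 and 0.13. With upper-quartile scaling the median of all genes was -0.09 in CKO. The shares of all genes called on these other scalings are not given here, so these splits have no background beside them. Leaving out CKO NEC 2 gave 8 that fell and a median of -0.06, leaving out CKO control 3 gave 11 that fell, and leaving out CKO NEC 1 gave 3 that rose. The sign of the members' own median in CKO tissue therefore depended on the scaling. Less the median of all genes, it was -0.14 in the main fit, -0.12 on deposited FPKM and -0.10 on reads scaled to each library's total. That difference was -0.15 with upper-quartile scaling, -0.05 with quantile normalization and -0.001 after centring within gene length.

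All 17 members that fell in CKO tissue also fell in flox tissue. The same overlap was not counted over all genes, so it is not read as a trait of the members. The contrasts have no library in common but were fitted together, so they share scaling factors and the estimate of the spread. Mrps21 stood at 60.04, 59.4 and 80.09 rescaled FPKM in CKO control and 36.1, 24.9 and 34.7 in CKO NEC, a change of -1.04 ± 0.16 (SE, adjusted p = 0.000674, limma) with no overlap. Mrps36 stood at 46.2, 37.9 and 57.0 against 19.6, 18.6 and 26.5 (change -1.08 ± 0.17 SE). Mrpl24 fell from 26.5 ± 3.0 to 14.7 ± 3.26, Mrpl36 from 25.6 ± 2.36 to 15.7 ± 1.48 and Mrpl34 from 56.9 ± 9.89 to 33.1 ± 5.94 rescaled FPKM (SD, n = 3 each). These 5 kept their calls in each of 22 alternatives. Mrps33, Mrpl45 and Mrpl27 fell in CKO by -0.43, -0.43 and -0.62, but lost the call in 6, 7 and 3 alternatives.

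Mrpl3 and Mrps18b rose in CKO tissue too. Mrpl3 stood at 3.21, 3.64 and 2.99 rescaled FPKM in CKO control and 7.52, 5.79 and 5.74 in CKO NEC, a change of 0.77 ± 0.13 (SE, adjusted p = 0.000767, limma). Mrps18b stood at 4.04, 3.88 and 2.82 against 7.52, 5.37 and 8.57 (change 0.82 ± 0.17 SE). Mrps28, Mrps27, Mrps5 and Mrpl37 passed in CKO and not in flox. Mrps28, the mitochondrial counterpart of bacterial S1, stood at 8.32, 6.36 and 9.90 in CKO control and 20.8, 12.6 and 12.5 in CKO NEC (change 0.81 ± 0.20 SE), and its flox change of 0.42 had an adjusted p of 0.0916. In flox it did pass on deposited FPKM, on reads scaled to each library's total, after centring within gene length and without CKO NEC 1. Its adjusted p in flox ran from 0.00212 to 0.214 over the 22 alternatives (limma). Mrps27, an RNA-binding addition, rose from 5.22 ± 1.62 to 8.77 ± 1.58, and Mrps5, which lies near the mRNA entry, from 2.91 ± 0.64 to 4.49 ± 0.58. The latter pair lost the call in 3 and 6 alternatives, with adjusted p up to 0.0588 and 0.0934. For none of the 4 did the interaction, the test of the difference between genotypes, pass.

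**Figure D3:**
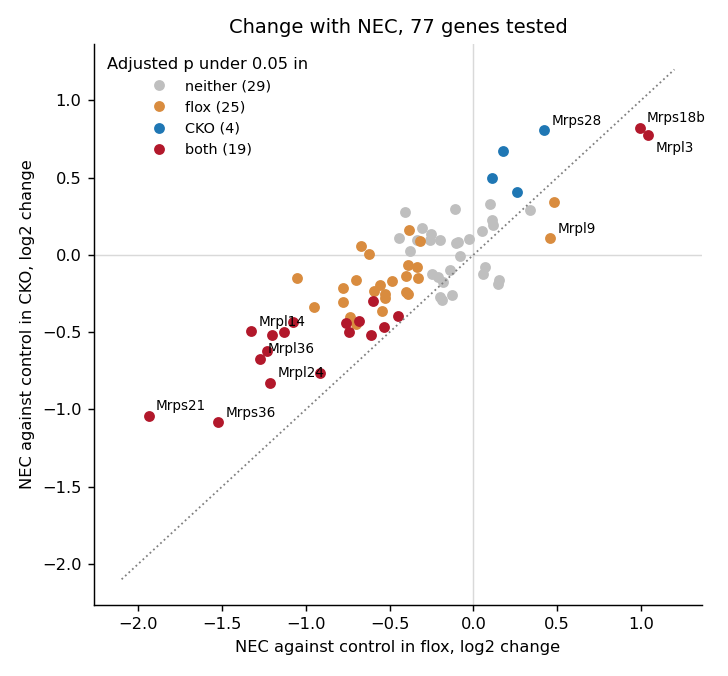
Each point is 1 of 77 members: its change with NEC in flox (horizontal) and in CKO (vertical) on the log2(rescaled FPKM + 1) scale, coloured by where the adjusted p is under 0.05, with the dotted line marking equal change. Of the members, 17 fell and 2 rose in both genotypes and 29 passed in neither, and most points lie above the line. On reads scaled to each library's total 20 members rise and 5 fall in CKO, where the median of all genes is 0.24. The share of all genes passing in both genotypes was not counted.

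Gene length ran alongside these changes in the whole tissue. Members have a median length of 2214 bases in the tables, against 3422 for all protein-coding genes. Among other protein-coding genes under 1000 bases the median change with NEC in flox was -0.66, and above 4000 bases it was 0.25. The members' medians in the same classes were -0.98 (8 genes) and -0.30 (22 genes). Between 1000 and 2000 bases the members (-0.44, 11 of 23 fell) were level with other genes (-0.45, 46.8% fell), and above 4000 bases 50% of members and 16.0% of other genes fell. With every library centred within 20 classes of gene length, an alternative chosen after the data were seen, 33 members fell and 7 rose in flox with a median of -0.21. Across genes, Spearman's correlation of length with the flox change was 0.32 in the 77 members and 0.39 in 12359 protein-coding genes, which share the libraries and are not independent replicates. The part of length or of RNA quality in the change was not tested.

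**Figure D4:**
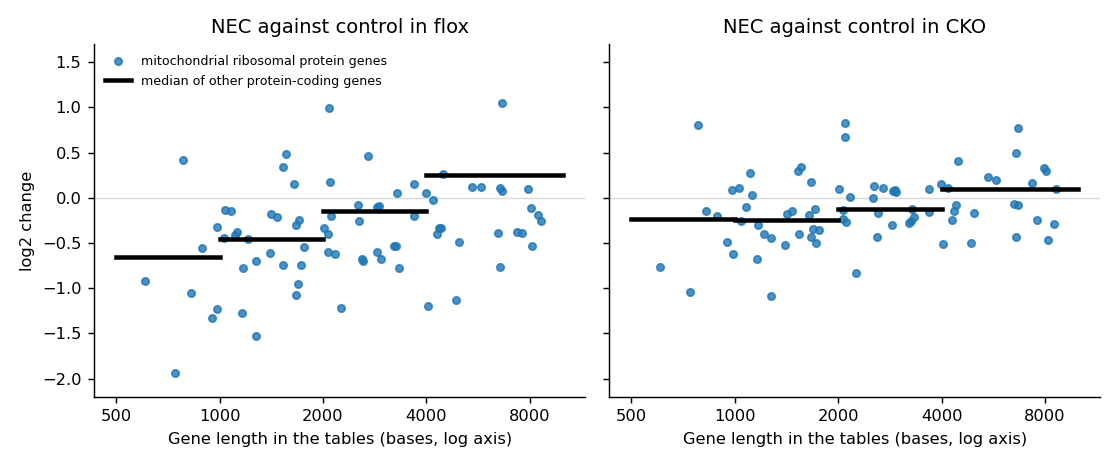
Change with NEC on the log2(rescaled FPKM + 1) scale against gene length on a log axis, for flox (left) and CKO (right). Points are members, and bars are the medians of other protein-coding genes in 4 length classes. In flox the members above 4000 bases have a median of -0.30 while other genes have 0.25, and in CKO the values are -0.07 and 0.10. On reads scaled to each library's total the members' median in CKO is 0.14, and that of all genes is 0.24.

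Cell-type markers moved with NEC as well. Fibroblast markers rose in 5 of 7 in flox and 7 of 7 in CKO, and their summed rescaled FPKM was 186 to 342 in flox control and 484 to 655 in flox NEC, and 71.5 to 196 in CKO control and 316 to 530 in CKO NEC. Of the 4 lymphocyte markers tested, 3 fell in flox and 4 in CKO, and the summed rescaled FPKM was 2.79 to 40.9 in flox control and 0.637 to 2.41 in flox NEC, and 14.3 to 18.0 in CKO control and 0.377 to 0.982 in CKO NEC. Endothelial markers rose in 3 of 5 in flox and 4 of 5 in CKO, and macrophage and neutrophil markers fell in 3 of 5 in each. Of 7 smooth muscle markers, 2 rose and 1, Tagln, fell in flox, and 2 rose and 0 fell in CKO, shares of higher calls close to those of all genes. Their median change was 1.04 in flox and 1.02 in CKO, with 6 of 7 above 0 in each. Their summed rescaled FPKM was 750 to 954 in flox control and 1878 to 2963 in flox NEC. In CKO the sums overlapped, with 220 to 655 in control and 555 to 2130 in NEC. Of 9 enterocyte markers 4 fell and 1 rose in each genotype, with sums of 19545 to 24837 in flox control against 6567 to 10550 in flox NEC. The one that rose was Sis, sucrase-isomaltase, by 5.84 in flox and 4.74 in CKO, and the one with the largest fall was Lct, lactase, with changes of -2.58 and -3.99. With quantile normalization the enterocyte list had 4 higher and 1 lower in flox (median 0.63) and 3 higher and 2 lower in CKO (median -0.07). Epithelial markers split, with 2 higher and 2 lower of 8 in flox and summed ranges that overlapped (2446 to 3050 and 2446 to 2912). The part of these cells in the members' levels was not tested.

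Knockout and flox tissue without injury differed in no single member by the adjusted test. In this comparison 0 members were called higher and 0 lower, where 0.0% of the 13300 genes tested were called higher and 0.00752% lower, and 21 members (27.3%) had an unadjusted p under 0.05, near the 28.9% of all genes. With limma-voom on recovered reads the count of lower calls was 1, and with all 4 groups in 1 fit it was 4. The members stood below flox in 56 of 77 with a median of -0.13, against 0.04 over all genes. Cytosolic ribosomal proteins stood below flox in 58 of 79 (median -0.18), and nuclear oxidative phosphorylation subunits in 60 of 77 (median -0.26). The libraries of the groups did not overlap in 20 members with CKO lower (12.7% of all genes) and in 4 with CKO higher (21.8% of all genes).

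Mrpl54, a large-subunit addition, had the smallest p. It stood at 58.4, 55.5 and 56.9 deposited FPKM in flox control and 35.9, 32.9 and 44.3 in CKO control, with no overlap (change -0.59 ± 0.14 SE, adjusted p = 0.0643, limma). Mrps21 stood at 97.7, 90.5 and 105 against 58.5, 57.9 and 77.8 (change -0.60 ± 0.15 SE, adjusted p = 0.0722, limma). Mrps15 had 22.9, 18.7 and 23.3 in flox and 14.5, 13.8 and 17.1 in CKO. In the other direction, Mrps12, a protein of the decoding centre, stood at 12.9, 15.6 and 15.1 in flox control and 19.0, 20.7 and 19.0 in CKO control (change 0.41 ± 0.12 SE, adjusted p = 0.0828, limma). Mrpl9 had 12.05, 16.2 and 12.8 against 17.3, 18.9 and 19.4, and Mrps18a had 4.53, 5.79 and 6.01 against 8.40, 6.84 and 7.03. In all 6 the groups did not overlap, and in none did the adjusted p pass in this fit. Of the 6, Mrpl54 and Mrps21 passed in some alternatives: Mrpl54 with a mean FPKM of at least 5, with limma-voom and with all 4 groups in 1 fit (adjusted p 0.042 to 0.202 over its 15 alternatives), and Mrps21 with all 4 groups in 1 fit (0.0344 to 0.215).

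Markers of other cells stood lower in CKO control beside these values. Smooth muscle markers were below flox in 7 of 7 (median -0.87, summed rescaled FPKM 750 to 954 in flox and 220 to 655 in CKO), and fibroblast markers in 7 of 7 (median -1.05). Reads from the mitochondrial genome were 12.8% ± 1.62 of reads in flox control, 6.03% ± 0.84 in CKO control, 4.05% ± 0.41 in flox NEC and 4.09% ± 0.54 in CKO NEC (SD, n = 3). Their part in the members' values was not tested.

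**Figure D5:**
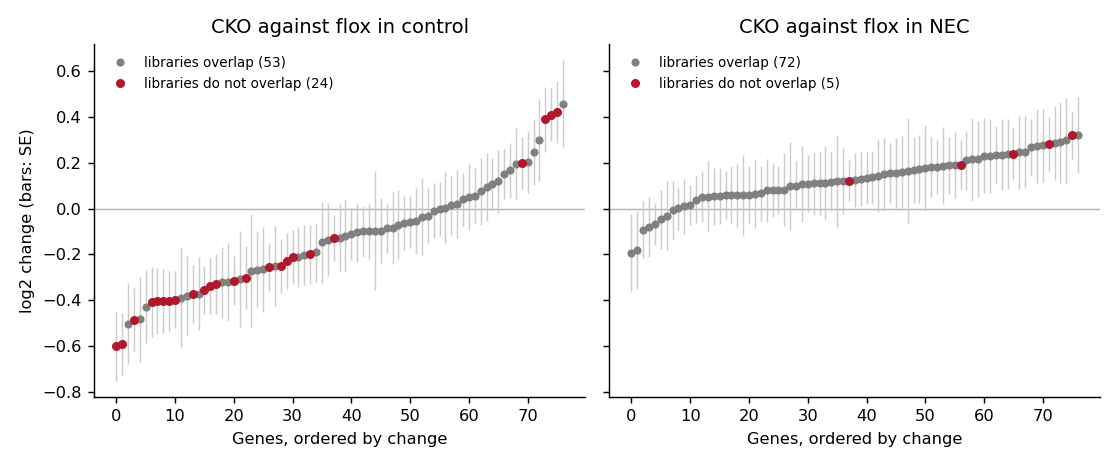
Change of each of 77 members between CKO and flox (points) with its SE (bars) on the log2(deposited FPKM + 1) scale, ordered within each panel, in control (left) and NEC (right). In control 56 members lie below 0 and in 24 the libraries of the groups do not overlap, and in NEC 69 lie above 0 and 5 do not overlap. No point passed the adjusted test in either panel.

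After NEC, CKO tissue stood slightly above flox in most members, with no call. The limma test called 0 members in either direction, where 0.0% of the 13673 genes tested were called higher and 0.0% lower, and 2 members (2.60%) had an unadjusted p under 0.05, against 4.38% of all genes. With limma-voom on recovered reads the count was also 0 in each direction. The members were above flox in 69 of 77 with a median of 0.12, against 0.01 over all genes. That median was 0.06 without CKO NEC 1 and 0.22 without CKO NEC 2, and after centring within gene length it was 0.07, with 18 members below flox in place of 8. Cytosolic ribosomal proteins were above flox in 79 of 79 (median 0.23), and nuclear oxidative phosphorylation subunits in 75 of 76 (median 0.17). In 5 members the groups did not overlap with CKO higher (4.83% of all genes), and in 0 with CKO lower (6.14%). Mrps11 stood at 7.41, 6.66 and 6.47 deposited FPKM in CKO and 4.85, 5.61 and 5.40 in flox (change 0.32 ± 0.10 SE, adjusted p = 0.84, limma). Mrps26 stood at 8.12, 6.27 and 7.21 against 5.22, 6.05 and 5.91, and Mrpl41 at 37.2, 30.07 and 36.1 against 28.2, 30.9 and 26.1, with an overlap. Below flox, Mrps30 had a change of -0.19, Mrps18b of -0.18 and Mrpl42 of -0.09. Smooth muscle markers were below flox in 7 of 7 here too (median -0.87, summed rescaled FPKM 1878 to 2963 in flox and 555 to 2130 in CKO), and their part was not tested.

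The interaction asks whether the genotype difference in NEC differs from that in control. It called 0 members, where 0.209% of 14808 genes were called higher and 1.01% lower, and 18 members (23.4%) had an unadjusted p under 0.05, near the 20.8% of all genes. With limma-voom on recovered reads 0 were called. With quantile normalization, and without CKO control 3, 1 member was called higher, Mrps21. The interaction was above 0 in 64 of 77 members with a median of 0.25, against -0.02 over all genes. It was above 0 in 74 of 80 cytosolic ribosomal proteins (median 0.40) and in 63 of 77 nuclear oxidative phosphorylation subunits (median 0.42). Among other protein-coding genes its median was 0.41 under 1000 bases and -0.15 above 4000 bases, against 0.50 and 0.20 in the members. The interaction was 0.88 ± 0.23 in Mrps21 (SE, adjusted p = 0.07, limma), 0.62 ± 0.16 in Mrps11 (adjusted p = 0.0758, limma) and 0.89 ± 0.24 in Mrpl54 (adjusted p = 0.0784, limma). Below 0 it was -0.36 in Mrpl9, -0.28 in Mrpl3 and -0.33 in Mrps18a. It was 0.37 in Mrps28, 0.48 in Mrps27 and 0.37 in Mrps5, none of which passed. CKO stood below flox in control and above it in NEC in 50 members. In Mrps11 and Mrpl4 the libraries did not overlap in either condition. The share of all genes with either of these patterns was not counted, so neither is read as a trait of the members.

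Genes around the mitochondrial ribosome did not all go the way of its proteins with NEC. Over all genes on rescaled FPKM, 26.4% fell and 27.1% rose in flox, and 22.9% fell and 20.1% rose in CKO. Of 5 subunits with other names, 2 fell in flox (Aurkaip1 and Gadd45gip1) and 1 in CKO, and Aurkaip1 fell from 47.8 ± 3.45 to 19.5 ± 2.52 rescaled FPKM in flox (SD, n = 3 each). Ptcd3, a pentatricopeptide subunit, did not pass, with 3.94 ± 0.70 and 3.83 ± 0.53. Among 27 assembly and rRNA maturation genes, 10 fell and 3 rose in flox, and 8 fell and 5 rose in CKO, while on reads scaled to each library's total 4 fell and 6 rose in flox and 2 fell and 8 rose in CKO. Nsun4, an rRNA methyltransferase, fell from 15.8 ± 2.91 to 5.44 ± 0.19 in flox and from 16.7 ± 4.20 to 6.502 ± 1.47 in CKO. Mettl17, a small-subunit assembly factor, fell from 6.83 ± 1.28 to 2.76 ± 0.59 in flox, and Ngrn, which acts on the large rRNA, from 13.06 ± 1.99 to 7.32 ± 0.95.

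Translation factors split, with 5 lower and 1 higher of 13 in flox and 4 lower and 2 higher in CKO, and on reads scaled to each library's total 3 lower and 4 higher in each. Gfm1, the elongation factor that moves the ribosome along, rose from 5.83 ± 1.16 to 13.4 ± 1.18 rescaled FPKM in flox, whereas Gfm2, which works in ribosome recycling, fell from 7.68 ± 1.51 to 3.83 ± 0.48. The release factor Mtrf1l fell from 4.05 ± 0.60 to 1.92 ± 0.33. Of 20 tRNA-charging genes 4 rose and 3 fell in flox, and 7 rose and 2 fell in CKO, but with upper-quartile scaling 3 rose and 4 fell in flox. In flox these first shares, 20% and 15%, were below the 27.1% and 26.4% of all genes. In CKO they were 35% and 10%, against 20.1% and 22.9%. Iars2, the isoleucyl-tRNA synthetase, rose from 9.71 ± 0.48 to 20.5 ± 1.38 in flox and from 12.5 ± 0.72 to 22.1 ± 1.60 in CKO. Mars2 rose in both genotypes, and Vars2 rose in CKO from 2.53 ± 0.38 to 5.19 ± 0.35 but did not pass in flox.

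Genes of mitochondrial transcription and RNA processing were called in the upward direction only: 5 of 14 in flox and 7 of 14 in CKO. Grsf1, of the RNA granules where the ribosome is assembled, rose from 15.6 ± 1.24 to 31.07 ± 0.66 rescaled FPKM in flox, and Tfb2m, a transcription factor of the mitochondrial genome, rose from 2.99 ± 0.55 to 6.55 ± 0.32. Elac2, a tRNA-processing nuclease, rose from 4.17 ± 0.49 to 7.76 ± 1.26. Of 9 regulators of mitochondrial biogenesis, 5 rose and 1 fell in each genotype. Their median change was 0.38 in flox and 0.30 in CKO, and the lowest change was -1.19 and -0.92. Their summed rescaled FPKM was lower with NEC, at 164 to 188 in flox control and 107 to 140 in flox NEC. In CKO it was 163 to 216 in control and 128 to 146 in NEC. Gabpa, the DNA-binding subunit of the GABP complex, stood at 5.95, 6.42 and 6.33 in flox control and 15.3, 14.9 and 12.9 in flox NEC, with no overlap. Myc rose from 5.14 ± 1.18 to 11.97 ± 2.85 and Pprc1, a coactivator of the PGC1 family, from 1.98 ± 0.50 to 4.22 ± 0.26. Of the members with an ETS core in a window 15 of 25 fell in flox, with a median of -0.39, and of those without 22 of 43 fell, also with a median of -0.39. For the YY1 core the flox medians were -0.113 with it (8 members) and -0.405 without. For the NRF1 core they were -0.245 (7 members) and -0.409, and for the E-box -0.306 (5 members) and -0.389. For the GC box they were -0.507 (34 members) and -0.313. These differences were not tested.

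The ribosome's products and their partners were mostly lower with NEC in flox tissue, and in CKO tissue the direction of the partners depended on the scaling. Of the 13 proteins encoded in mitochondria 12 fell in flox (median -2.01) and 8 in CKO (median -0.95), while with quantile normalization 5 fell in flox (median -0.34) and 1 in CKO (median -0.03). Of 77 nuclear subunits of oxidative phosphorylation 47 fell and 5 rose in flox (median -0.75), with 34 lower and 11 higher (median -0.28) under quantile normalization. In CKO 20 fell and 1 rose (median -0.22), but 7 fell and 13 rose on reads scaled to each library's total (median 0.10) and 11 fell and 15 rose with quantile normalization (median 0.13). Cytosolic ribosomal proteins had 20 lower and 6 higher of 80 in flox (median -0.18), and 23 higher and 3 lower in CKO (median 0.24). Their share that fell in flox, 25%, was near the 26.4% of all genes. The flox median of the cytosolic set was 0.08 on reads scaled to each library's total, 0.28 with quantile normalization and 0.14 after centring within gene length. Cell cycle genes rose in 15 of 17 in each genotype.

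Processed pseudogenes of 3 members were also counted. Mrpl23-ps1 stood at 14.9 ± 3.84 rescaled FPKM in flox control and 4.39 ± 0.93 in flox NEC, and Mrps36-ps1 at 3.10 ± 0.15 and 0.78 ± 0.32 (SD, n = 3 each). Mrps36-ps1 had only 2 to 14 reads in a library and stood at 3.05 in CKO NEC 3. Mrpl48-ps was level, at 1.21 ± 0.42 and 1.24 ± 0.31, and Mrps36-ps2 stood at 0.59 ± 0.33 and 0.42 ± 0.41. Mrps36-ps3 was at 0 in all 12 libraries. Reads of Mrpl23, Mrps36 and Mrpl48 may be split with these copies, since the sources used here do not say how reads with several matches were handled, and their values are uncertain to that extent.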

How the data were processed

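Per the labels' protocols, Trizol was used for RNA and a NEBNext Ultra II kit for the libraries. The authors deposited FPKM per gene, with gene lengths, in 2 tables of 6 libraries; the sources used here name no aligner, counter or build. Multiplied by gene length, 100% of values fell on whole reads of a single step within 0.05, which gave the reads. Rescaled FPKM are those reads divided by median-of-ratios factors over 12 libraries and by length. limma 3.58.1 in R 4.3.3 was fitted with a mean-variance trend on log2 values with a pseudocount of 1, on the 6 libraries of a table for genotype, and on all 12 for NEC against control and the interaction. The fit was tested on simulated data. Other work used Python 3.11.15. The members, gene lists and tests were chosen with earlier results of these data known. Named members were up to 5 in each direction of each comparison with the smallest p among called members whose groups do not overlap, or the 3 with the smallest unadjusted p where fewer than 3 passed, plus 9 chosen by role and the 3 highest and 3 lowest by level; each pathway list gave up to 3 genes. Mrps23, Mrpl14, Mrpl22, Mrpl51, Mrpl4, Mrpl37, Mrpl53, Mrpl46, Mrps34, Mrpl23 and Mrpl48 and the genes Sars2, Ndufs6, Sis, Lct and Tagln were named after their values were seen. Alternatives covered pseudocount, filter, scaling, block, tool and leaving out each library.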

Additional observations from a re-analysis of the deposited data

How the results depend on the processing

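Precision is limited by 3 libraries per group. Same-numbered libraries were not shown to be pairs (18 correlations of their deviations from the group means, -0.122 to 0.358); with the replicate number as a block, 2 members were called lower in control (Mrpl54 and Mrps21), and the counts of calls in the other comparisons stayed within 1.5 times. In control, 1 member was called lower with a mean FPKM of at least 5, 1 with limma-voom and 4 with all groups in 1 fit, and the members' median was -0.213 with quantile normalization. The interaction called 1 member higher with quantile normalization, and 0 to 1 when a library was left out. For NEC in flox the median was -0.4553 with a pseudocount of 0.1, -0.458 with limma-voom, -0.2569 on deposited FPKM (7 higher), -0.1541 on reads scaled to each library's total (9 higher, 24 lower) and -0.2056 centred within gene length (7 higher), an alternative chosen after seeing the data. For NEC in CKO, 11 were lower with quantile normalization, 10 on deposited FPKM (median -0.01274) and 5 on reads scaled to the total (20 higher), where the median reversed to 0.1434. The median of all genes was 0.2438 on that scaling. The members' median also reversed, to 0.005547, when centred within gene length, where that of all genes was 0.006772. Leaving out each library gave 2 to 4 higher and 34 to 41 lower in flox, and 3 to 7 higher and 8 to 18 lower in CKO. The cause was not tested.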
